A study of Mus musculus with 32 samples.

Results

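The genes described here are 9 regulators of blood stem and progenitor cells, chosen by symbol: Hoxa5, Hoxa7, Hoxa9, Hoxa10, Hoxb3, Hoxb4, Meis1, Hlf and Mecom. Of these, 8 had a row in the table of 27728 genes, and Hoxb3 was not analysed here. They were measured by RNA sequencing in mouse hematopoietic progenitors sorted as negative for lineage markers, positive for cKit and negative for Sca1, in 32 libraries of 9 groups. Such a sort takes committed progenitors and leaves out the Sca1-positive fraction that holds the stem cells.

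Of the libraries, 15 were made from fetal liver at stage E14.5. The flox control (n = 3) was U2af1(flox/flox) without Cre. The heterozygous deletion (n = 3) was Vav1-Cre with U2af1(wt/flox), and the homozygous deletion (n = 3) was Vav1-Cre with U2af1(flox/flox). The Vav1-Cre group (n = 2) carried Cre alone, and the S34F group (n = 4) carried Vav1-Cre with U2af1(wt/S34F). Vav1-Cre recombines floxed alleles in blood cells, and all fetal groups were untreated. The 9 flox and deletion libraries were of the labels' batch A, the 4 S34F libraries of batch B, and the Vav1-Cre group had 1 library in each.

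The other 17 libraries came from adult bone marrow, and all adult mice carried Mx1-Cre, rTA and the transgene tgU2AF1(WT). The 3 dosed groups also had U2af1(flox/S34F), received pIpC (an interferon inducer that switches on Mx1-Cre) and ate doxycycline chow, which drives the transgene. Their chow was made at 1250 ppm (n = 4), at 2500 ppm (n = 6) and at 10000 ppm (n = 4) of doxycycline. The adult control, called wild type here (n = 3), had U2af1(wt/wt) and was not treated, so the dosed groups differed from it in genotype, pIpC and doxycycline together. U2af1 itself was not analysed here. The labels did not say which libraries came from separate animals, so p-values measure the spread between these samples, which may be in part technical.

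Hox genes encode homeodomain transcription factors and lie in clusters whose order along the chromosome matches their order of use along the body axis. In blood, genes of the HoxA cluster, Hoxa9 above all, and Hoxb4 are known for high activity in stem and early progenitor cells and for a decline as cells mature. Hox proteins bind DNA together with TALE homeodomain partners, the Pbx and Meis families, and Meis1 with Hoxa9 drives several leukemias. Hlf, a PAR bZIP factor, and Mecom, which encodes the zinc-finger protein Evi1, are markers and regulators of stem cells that are low in most committed progenitors.

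The 4 HoxA genes lie on the minus strand of chromosome 6 in GRCm38, Hoxa5 at chr6:52201754-52204587, Hoxa7 at chr6:52214491-52221854, Hoxa9 at chr6:52223100-52231089 and Hoxa10 at chr6:52231197-52240854. Chromosome 11 holds Hoxb4 on the plus strand at chr11:96318267-96321638, and Meis1 and Hlf on the minus strand at chr11:18879817-19018985 and chr11:90336536-90390895. Mecom lies on the minus strand at chr3:29951296-30548008. All 8 are annotated as protein-coding, and the values are sums over a whole gene. Of the exonic bases of Hoxa7, 586 are shared with the antisense gene Hoxaas3. Meis1 shares 1029 exonic bases with Gm37818 on its own strand and 896 with Gm16140 on the other. The use of strand in counting was not given in the sources used here, so reads of these overlapping genes cannot be told apart.

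The total per library ran from 26588099 to 71251200 counts. Values are scaled counts-per-million (CPM), and differences are log2 fold changes with their SE from edgeR's quasi-likelihood test, and a gene was called where its p, adjusted over all genes tested by Benjamini-Hochberg, was under 0.05. All 8 genes were tested in each of the 10 comparisons, and each exceeded 3 counts in every library. As a check of the sort, Kit, which encodes cKit, measured between 231 and 789 CPM in the 32 libraries. Transcripts of liver cells were present in the fetal libraries. The summed level of 10 hepatocyte genes was 104, 656 and 418 CPM in the flox control, 50.9 to 127 CPM in the heterozygous deletion and 11.7 to 31.8 CPM in the homozygous deletion, while Alb, Ttr, Fgb and Fga were at 0 in every adult group's libraries.

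Compared per length of exon, the order of the genes differed between stages. In the adult wild type, Hoxa7 was highest at 6.24 ± 0.441 CPM per kb (SD, n = 3), followed by Hoxa9 at 4.71 ± 0.919, Meis1 at 4.67 ± 0.646, Hoxb4 at 4.33 ± 0.139 and Hlf at 3.14 ± 0.447. Hoxa5 stood at 1.94 ± 0.149 CPM per kb, and Hoxa10 and Mecom were lowest at 0.485 ± 0.171 and 0.466 ± 0.0846. The means of Hoxa9, Meis1 and Hoxb4 lay within 1 SD of Hoxa9 of each other. In the fetal flox control, Meis1 came first at 6.82 ± 0.237 CPM per kb, then Hlf at 4.15 ± 0.85 and Hoxa7 at 3.57 ± 1.64, whose spreads overlapped. Hoxa9 measured 1.57 ± 0.698 CPM per kb there, Hoxb4 0.715 ± 0.18, Hoxa5 0.492 ± 0.18, Mecom 0.127 ± 0.0607 and Hoxa10 0.112 ± 0.117.

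**Figure D1:**
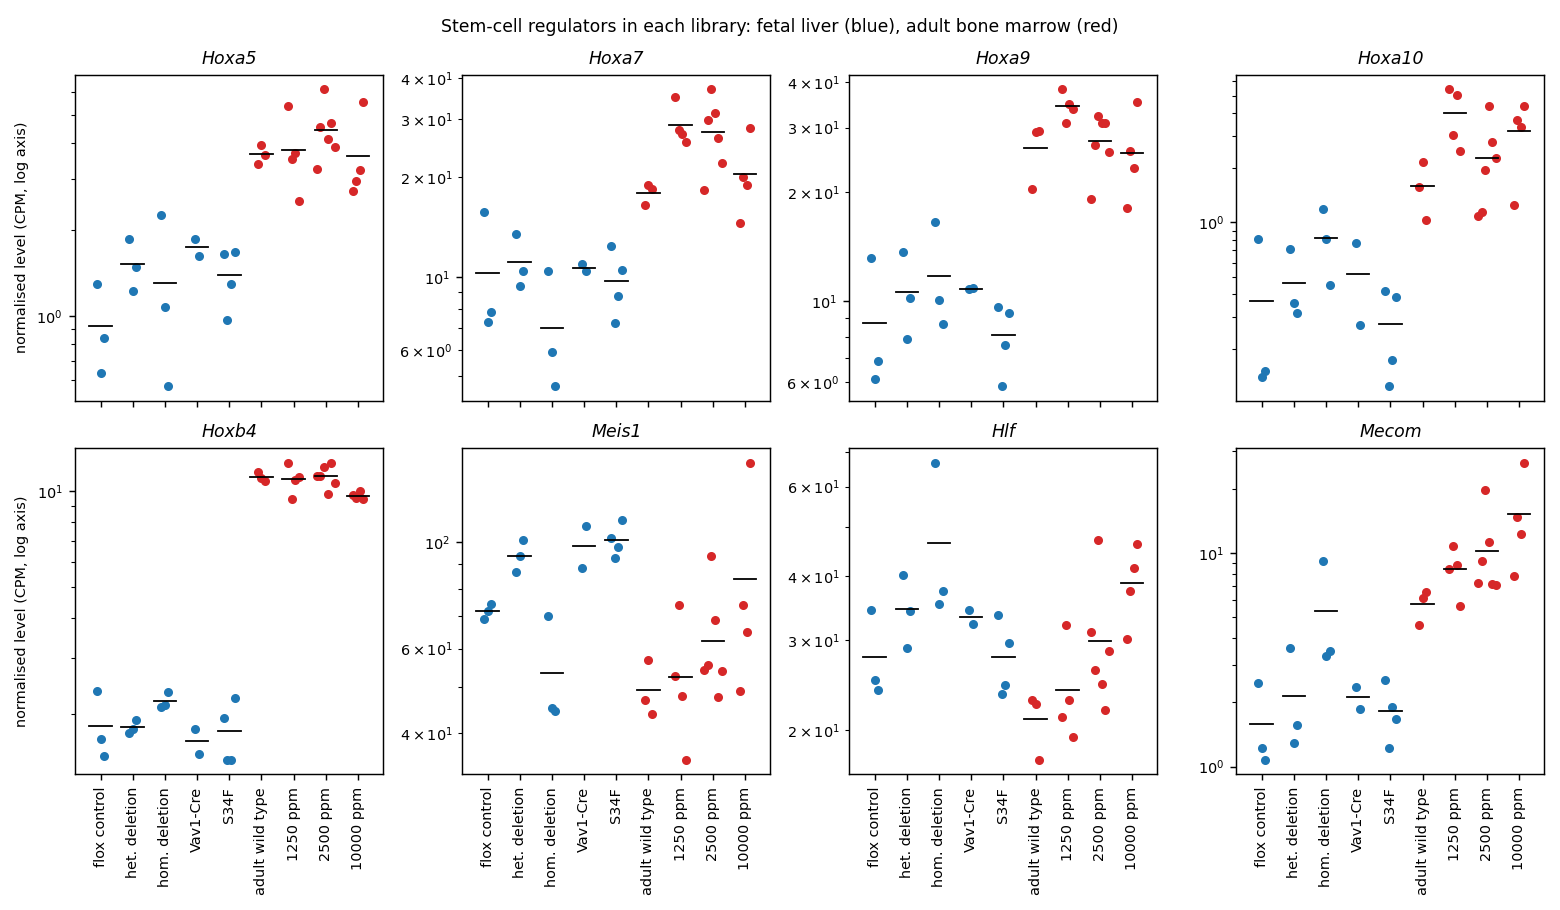
Level of each of the 8 genes in CPM (log axis) in every library, by group, with fetal liver in blue, adult bone marrow in red and the group mean as a line. Hoxb4 lies between 1.44 and 2.36 CPM in all 15 fetal libraries and between 9.44 and 12.3 CPM in all 17 adult libraries, while Meis1 and Hlf overlap between the stages.

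The first comparison asked how fetal and adult control progenitors differed. Between the flox control and the adult wild type, 7 of the 8 genes passed the test, 6 of them lower in the fetus (Hoxa5, Hoxa7, Hoxa9, Hoxa10, Hoxb4 and Mecom) and 1 higher (Meis1). Of all genes tested, 59.0% were called in this comparison, 30.0% higher and 29.0% lower in the fetus. The median log2 difference of the 8 genes was -1.72, beside -0.00 over all genes. Stage, organ, the Cre and transgene alleles of the adults and the flox alleles of the fetal controls cannot be told apart here. In bulk samples, fewer cells of a type and less RNA per cell cannot be told apart either.

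Hoxb4, a factor known for expanding stem cells when its level is raised, showed the clearest separation. It measured 2.36, 1.67 and 1.48 CPM in the 3 flox control libraries and 11.5, 11.0 and 10.8 CPM in the 3 adult wild-type libraries. The fetal level was 6.03-fold lower (log2 -2.59 ± 0.21, edgeR adjusted p = 0.000155). No fetal library of any genotype came near an adult one, though how many of all genes separated likewise was not counted. The coefficient of variation of Hoxb4 was 25.1% in the flox control and 3.20% in the adult wild type, and in the other groups ran from 2.53% at 10000 ppm to 22.4% in S34F.

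Hoxa9, the main leukemia-linked gene of the cluster, measured 13.2, 6.13 and 6.86 CPM in the flox control and 20.4, 29.2 and 29.3 CPM in the adult wild type. The fetal level was lower (log2 -1.58 ± 0.31, edgeR adjusted p = 0.00444). Its 15 fetal libraries spanned 5.86 to 16.5 CPM and its 17 adult libraries 18.1 to 38.2 CPM, without overlap. Hoxa5, a gene of the cluster's middle, measured 1.30, 0.635 and 0.841 CPM in the flox control against 3.38, 3.94 and 3.64 CPM, and was 3.91-fold lower (log2 -1.97 ± 0.29, edgeR adjusted p = 0.00142). The fetal range of Hoxa5 ended at 2.25 CPM and the adult range began at 2.52 CPM.

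Hoxa10 and Hoxa7 also fell below the adult level, with weaker statistics. Hoxa10, next to Hoxa9 in the cluster, gave 0.806, 0.141 and 0.151 CPM in the flox control and 1.57, 2.15 and 1.03 CPM in the adult wild type (log2 -2.07 ± 0.69, edgeR adjusted p = 0.0360). Hoxa7 gave 15.7, 7.29 and 7.80 CPM against 16.5, 18.9 and 18.4 CPM (log2 -0.80 ± 0.29, edgeR adjusted p = 0.0478). In both genes flox control replicate 3 was the highest of its group. Hoxa7 and Hoxa10 each passed the test in 8 of 14 alternative fits. Hoxa7 lost its call when any 1 of 5 libraries was left out (flox control replicate 4 or 5, or any adult wild-type library), and Hoxa10 when any 1 of 4 was left out (flox control replicate 4 or 5, or adult wild-type replicate 1 or 2), with adjusted p between 0.0769 and 0.144.

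The sequences just before the transcription starts are shown for Hoxa5, Hoxa9 and Hoxb4, the Hox genes here whose fetal and adult libraries did not overlap, and for Hlf, the 1 gene of the 8 called between doses, near the threshold. The share of all genes without such overlap was not counted, so the trait is not shown to be particular to these Hox genes. Each is the 250 bases before the RefSeq start in GRCm38.p6, on the gene's own strand from 5′ to 3′, and capitals mark matches to the motifs named afterwards.
Hoxa5: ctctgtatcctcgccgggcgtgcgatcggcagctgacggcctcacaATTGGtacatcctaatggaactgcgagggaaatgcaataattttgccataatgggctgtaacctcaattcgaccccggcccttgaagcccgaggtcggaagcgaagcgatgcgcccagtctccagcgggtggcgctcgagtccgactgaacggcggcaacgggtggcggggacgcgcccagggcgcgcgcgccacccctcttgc
Hoxa9: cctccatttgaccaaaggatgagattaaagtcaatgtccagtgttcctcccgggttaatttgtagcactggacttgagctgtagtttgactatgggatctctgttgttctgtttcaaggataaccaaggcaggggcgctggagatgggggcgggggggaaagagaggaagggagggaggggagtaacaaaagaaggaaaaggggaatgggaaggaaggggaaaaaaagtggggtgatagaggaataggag
Hoxb4: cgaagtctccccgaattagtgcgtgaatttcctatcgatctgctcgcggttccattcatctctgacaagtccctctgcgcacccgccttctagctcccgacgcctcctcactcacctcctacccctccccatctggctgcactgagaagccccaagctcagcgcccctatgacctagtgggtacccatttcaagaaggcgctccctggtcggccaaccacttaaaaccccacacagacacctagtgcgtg
Hlf: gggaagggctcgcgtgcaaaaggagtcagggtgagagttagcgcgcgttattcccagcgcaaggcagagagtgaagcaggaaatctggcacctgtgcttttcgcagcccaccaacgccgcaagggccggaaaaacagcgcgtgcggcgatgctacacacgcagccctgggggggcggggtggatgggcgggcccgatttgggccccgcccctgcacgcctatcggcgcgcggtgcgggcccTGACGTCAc
These windows are chr6:52204588-52204837 (minus strand) for Hoxa5, chr6:52227371-52227620 (minus) for Hoxa9, chr11:96318017-96318266 (plus) for Hoxb4 and chr11:90390918-90391167 (minus) for Hlf. The window of Hoxa5 had 63.6% G and C and 28 CG dinucleotides, that of Hoxb4 58.0% and 14, and that of Hoxa9 49.6% and 3, beside a median of 52.4% G and C over all 32851 windows of that length. Hlf had 67.2% and 26. So the genes that separated by stage had both CG-rich and CG-poor windows.

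The motifs searched, on both strands, were TGATNNAT (Pbx-Hox), TGACAG (Meis), AGATAA (for Gata factors), CCAAT (the NF-Y box), CACGTG (the E-box), TTACNTAA (for PAR bZIP factors), TATAAA (the promoter box of that name) and TGACGTCA (for CREB). None of these 4 windows held the Pbx-Hox or the Meis letters, which 7.68% and 15.9% of all windows did. Hoxa5 held CCAAT, read as ATTGG on the gene's strand from 204 to 200 bases before the start, a motif found in 33.8% of windows. Hlf held TGACGTCA from 9 to 2 bases before its start, found in 1.55% of windows. Hoxa9 and Hoxb4 held none of the 8 motifs. Letters of the Gata motif occurred in 9.99% of windows, the E-box in 6.02%, PAR bZIP in 2.06% and TATAAA in 12.4%, and none of them in these windows. Among the windows not printed, a window of Mecom held the Pbx-Hox letters from 31 to 24 bases before its start. Another Mecom window held the Meis letters from 86 to 81 bases before its start, and both windows hold annotated Mecom exon. A match describes the letters and is no measured site.

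The neighbours of these genes in their clusters followed a similar order of levels. Of 28 Hox genes with a row, 20 exceeded 3 counts in at least 1 library, and the 8 that did so in every adult library were Hoxa4, Hoxa5, Hoxa6, Hoxa7, Hoxa9, Hoxa10, Hoxb4 and Hoxb5. In every fetal library 6 did, the same list without Hoxa6 and Hoxb5. Of the 4 other Hox genes tested between the controls, Hoxa6 (5.31-fold, log2 -2.41 ± 0.55, edgeR adjusted p = 0.00833) and Hoxa2 (3.18-fold, log2 -1.67 ± 0.33, edgeR adjusted p = 0.00460) were lower in the fetus. Hoxa4 did not pass, at log2 -0.69 ± 0.37 (edgeR adjusted p = 0.146).

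Hoxb5, which marks long-term stem cells and lies beside Hoxb4, did not pass the filter on low counts in this comparison; its lowest adult wild-type library had 9 counts. No flox control library exceeded 2 counts, and the adult wild-type mean of 0.997 CPM was at least 17.8-fold higher than a floor of 3 counts per library. Over all libraries it exceeded 3 counts in 5 of 15 fetal and 17 of 17 adult libraries, from 0 to 0.259 CPM and from 0.189 to 3.62 CPM. No library exceeded 3 counts for 8 of the other Hox genes, among them Hoxa11 and Hoxa13 at the 5′ end of the cluster.

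**Figure D2:**
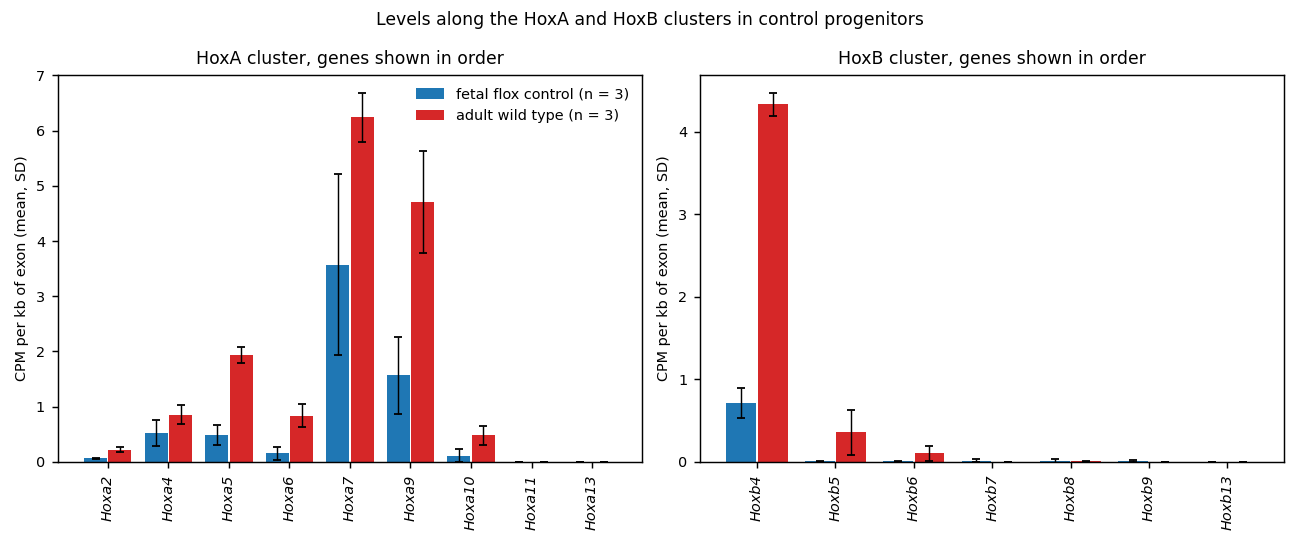
Mean level in CPM per kb of exon (bars, with SD) of genes from Hoxa2 to Hoxa13 and from Hoxb4 to Hoxb13 with a row, in cluster order, in the fetal flox control (blue, n = 3) and the adult wild type (red, n = 3). Hoxa7 and Hoxa9 in HoxA and Hoxb4 in HoxB stand above their neighbours, and the adult bar is higher at each of the 5 Hox genes among those described here.

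The 3 genes outside the clusters did not share a direction. Meis1, the DNA-binding partner of Hoxa9, was higher in the fetus, at 69.2, 72.0 and 74.2 CPM in the flox control and 47.0, 56.8 and 43.8 CPM in the adult wild type (log2 0.55 ± 0.11, 1.46-fold, edgeR adjusted p = 0.00424). Mecom was lower, at 2.45, 1.22 and 1.08 CPM against 4.60, 6.18 and 6.58 CPM (log2 -1.86 ± 0.35, 3.63-fold, edgeR adjusted p = 0.00380). Hlf did not pass, at 34.3, 25.1 and 23.9 CPM against 22.9, 22.5 and 17.5 CPM (log2 0.41 ± 0.17, edgeR adjusted p = 0.0746). With the 2 Vav1-Cre libraries in place of the flox control, Hlf was higher in the fetus (log2 0.73 ± 0.15, edgeR adjusted p = 0.0109), and with DESeq2 its adjusted p was 0.0471.

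Transcripts of other cell types moved with stage. In the fetus, 4 of 4 B lineage, 4 of 4 late erythroid, 4 of 5 megakaryocyte and 7 of 8 macrophage markers were higher, the exception being Vcam1 (23.5 against 378 CPM), which carried most of the adult macrophage sum (353 to 456 against 103 to 110 CPM), and 6 of 6 neutrophil markers were lower. Kit did not differ by the test (log2 -0.08 ± 0.11, edgeR adjusted p = 0.567). Of the hepatocyte markers, 9 of 10 were higher. Of the endothelial markers, 2 of 4 were higher and none lower, and Cdh5 averaged 9.37 CPM in the flox control and 0.115 CPM in the adult wild type. The mean log2 CPM of the 10 hepatocyte genes, a score per library, ran from -0.93 to 5.35 in the fetal and from -3.33 to -2.44 in the adult libraries, so the score and the stage cannot be told apart. With it as a covariate over all 32 libraries, none of the 8 genes was called between the controls, Hoxb4 stood at log2 -1.82 ± 0.50 (edgeR adjusted p = 0.0942) and Meis1 at -0.36 ± 0.88 (edgeR adjusted p = 0.926). Without the score, a fit of all 32 libraries gave Meis1 at 0.56 ± 0.28 (edgeR adjusted p = 0.0978). The fetal library with the lowest score, homozygous deletion replicate 4 at -0.93, had 2.35 CPM of Hoxb4, and the one with the highest, flox control replicate 4 at 5.35, had 1.67 CPM. These libraries also differ in genotype, and comparing them cannot part the score from the stage.

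**Figure D3:**
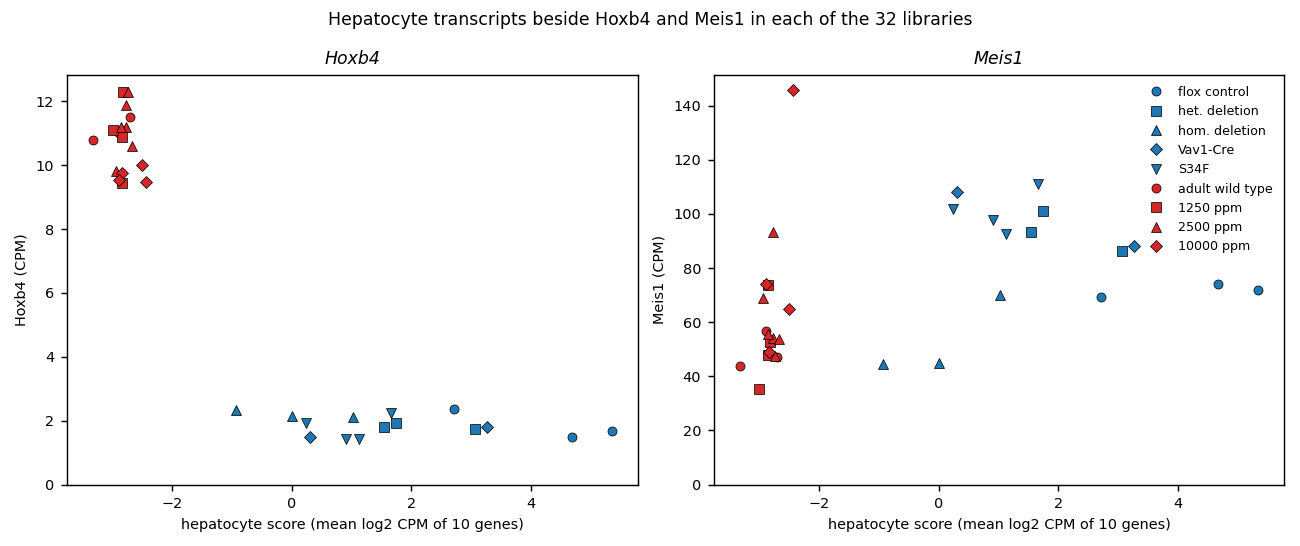
Hoxb4 (left) and Meis1 (right) in CPM against the hepatocyte score, the mean log2 CPM of 10 hepatocyte genes, with 1 point per library, fetal in blue and adult in red. Hoxb4 stays between 1.44 and 2.36 CPM across fetal scores from -0.93 to 5.35, and the Meis1 ranges of the stages overlap.

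Partners and regulators of these genes were read from lists chosen for the pathway, by their counts and medians. Of all genes tested between the controls, 59.0% were called. Of 7 TALE partners tested between the controls, 4 were higher and 2 lower in the fetus, with a median log2 difference of 0.83. Pbx2, a partner common to Hox and Meis proteins, averaged 217 ± 14.3 CPM in the flox control and 85.1 ± 11.1 CPM in the adult wild type (SD, n = 3; log2 1.36 ± 0.11, edgeR adjusted p = 0.000147). Meis2 averaged 1.07 ± 0.0945 CPM in the flox control, at least 18.1-fold higher than the floor in the adult wild type, where no library exceeded 2 counts. Meis3 was higher too (log2 3.45 ± 0.81) and Pbx4 lower (log2 -0.89 ± 0.16).

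The PAR bZIP relative of Hlf with a row, Tef, was higher in the fetus (log2 0.70 ± 0.10, edgeR adjusted p = 0.00128). Of 14 chromatin regulators that act on Hox genes, 3 were higher and 6 lower with a median of -0.04, led by Aff1 (log2 -0.66 ± 0.06), Men1 (0.58 ± 0.05) and Psip1 (0.55 ± 0.05). Of 11 genes reported as targets of Hoxa9 and Meis1, 1 was higher and 4 were lower, with a median of -0.23. Cdk6, a cell-cycle kinase, was 2.19-fold lower (log2 -1.13 ± 0.08), Eya1 5.35-fold lower (log2 -2.42 ± 0.29) and Erg 1.30-fold lower (log2 -0.38 ± 0.13), while Igf1 was higher (log2 4.19 ± 0.69).

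Of 14 other stem-cell transcription factors, 6 were higher and 6 lower in the fetus, with a median of 0.39. Gfi1b (log2 2.02 ± 0.37), Prdm16, a close relative of Mecom (1.87 ± 0.47), and Gata2 (1.15 ± 0.16) were higher and Gfi1 (-1.46 ± 0.19) lower. Of 8 stem-cell surface genes, 4 were higher and none lower, led by Fgd5 (log2 6.37 ± 0.32), Ctnnal1 (1.70 ± 0.21), Esam (1.07 ± 0.35) and Tek (1.06 ± 0.21). Mecom and the Hox genes were lower in fetal libraries in which these 4 surface genes were higher. Tek was also on the endothelial list, and the stem-cell factors went both ways.

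The second comparison asked how these genes differed with U2af1 deletion in the fetus, within batch A. The flox control carried no Cre, so Vav1-Cre and the deletion cannot be told apart in the comparisons with it. Where groups are said not to overlap, the share of all genes that separated likewise was not counted. In the homozygous deletion, 3 of the 8 genes passed the test against the flox control, Mecom and Hlf higher and Meis1 lower. Of all genes tested, 41.0% were called, 18.5% higher and 22.4% lower. The median log2 difference of the 8 genes was 0.44, beside -0.02 over all genes. None of the Hox genes passed the test, though Hoxa7 did so without homozygous deletion replicate 2 (log2 -0.94, edgeR adjusted p = 0.0434).

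Mecom measured 9.21, 3.29 and 3.49 CPM in the homozygous deletion and 2.45, 1.22 and 1.08 CPM in the flox control, without overlap (3.30-fold, log2 1.72 ± 0.51, edgeR adjusted p = 0.0192). Hlf measured 66.8, 35.3 and 37.5 CPM against 34.3, 25.1 and 23.9 CPM, also without overlap (1.66-fold, log2 0.73 ± 0.23, edgeR adjusted p = 0.0252). In both genes homozygous deletion replicate 2 was the highest. Meis1 went the other way, at 70.2, 45.1 and 44.6 CPM against 69.2, 72.0 and 74.2 CPM (1.36-fold lower, log2 -0.45 ± 0.15, edgeR adjusted p = 0.0305), and replicate 2 lay inside the control range.

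These 3 calls depended on single libraries. None of them held without flox control replicate 4 (adjusted p 0.0626 to 0.0758) or without flox control replicate 5 (0.0705 to 0.0881). Without homozygous deletion replicate 2, Mecom (log2 1.10, edgeR adjusted p = 0.0887) and Hlf (0.40, 0.0847) lost their calls. Meis1 lost its call without replicate 3 (log2 -0.31, edgeR adjusted p = 0.134) or replicate 4 (-0.36, 0.115). Without flox control replicate 3, 5 genes were called, with Hoxa9 (log2 0.84, edgeR adjusted p = 0.0244) and Hoxa10 (2.46, 0.00539) added. With the hepatocyte score as a covariate none was called, at log2 2.33 ± 0.92 for Mecom, 0.96 ± 0.45 for Hlf and -0.12 ± 0.29 for Meis1. The score was 2.72, 5.35 and 4.68 in the flox control and 1.02, 0.00 and -0.93 in the homozygous deletion. Since these scores do not overlap, the fit cannot part the score from the genotype.

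Against the heterozygous deletion, Meis1 was the 1 gene of the 8 that passed, beside 42.3% of all genes tested (19.8% higher and 22.4% lower). Its level was 86.4, 93.5 and 101 CPM in the heterozygous deletion and 70.2, 45.1 and 44.6 CPM in the homozygous deletion, without overlap (1.79-fold lower, log2 -0.84 ± 0.15, edgeR adjusted p = 0.00110). It was called in all 14 alternative fits, with adjusted p up to 0.0156, and in the fit with the hepatocyte score among them. Mecom missed the threshold (log2 1.29 ± 0.49, edgeR adjusted p = 0.0563) and passed it in 6 of 14 alternatives, among them DESeq2 (adjusted p = 0.0151). The heterozygous libraries had 3.58, 1.29 and 1.57 CPM of Mecom, of which replicate 3 overlapped the homozygous range, and without replicate 3 the log2 difference was 1.85 (edgeR adjusted p = 0.0182). Both comparisons share the homozygous deletion libraries.

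The Hox genes gave these values in the deletions. Hoxa7 was at 10.4, 5.94 and 4.67 CPM in the homozygous deletion, 13.5, 9.38 and 10.4 CPM in the heterozygous deletion and 15.7, 7.29 and 7.80 CPM in the flox control (log2 against flox -0.57 ± 0.33, edgeR adjusted p = 0.191). Hoxa9 was at 16.5, 10.1 and 8.70 CPM, 13.7, 7.89 and 10.2 CPM, and 13.2, 6.13 and 6.86 CPM in the same order (log2 against flox 0.41 ± 0.31, edgeR adjusted p = 0.333). The groups overlapped in both genes. Hoxa5 gave log2 0.47 ± 0.44, Hoxa10 1.11 ± 0.65 and Hoxb4 0.24 ± 0.23 against the flox control, with edgeR adjusted p of 0.429, 0.198 and 0.429. Hoxb4 measured 2.10, 2.14 and 2.35 CPM in the homozygous deletion, close to the flox control's 2.36, 1.67 and 1.48 CPM.

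**Figure D4:**
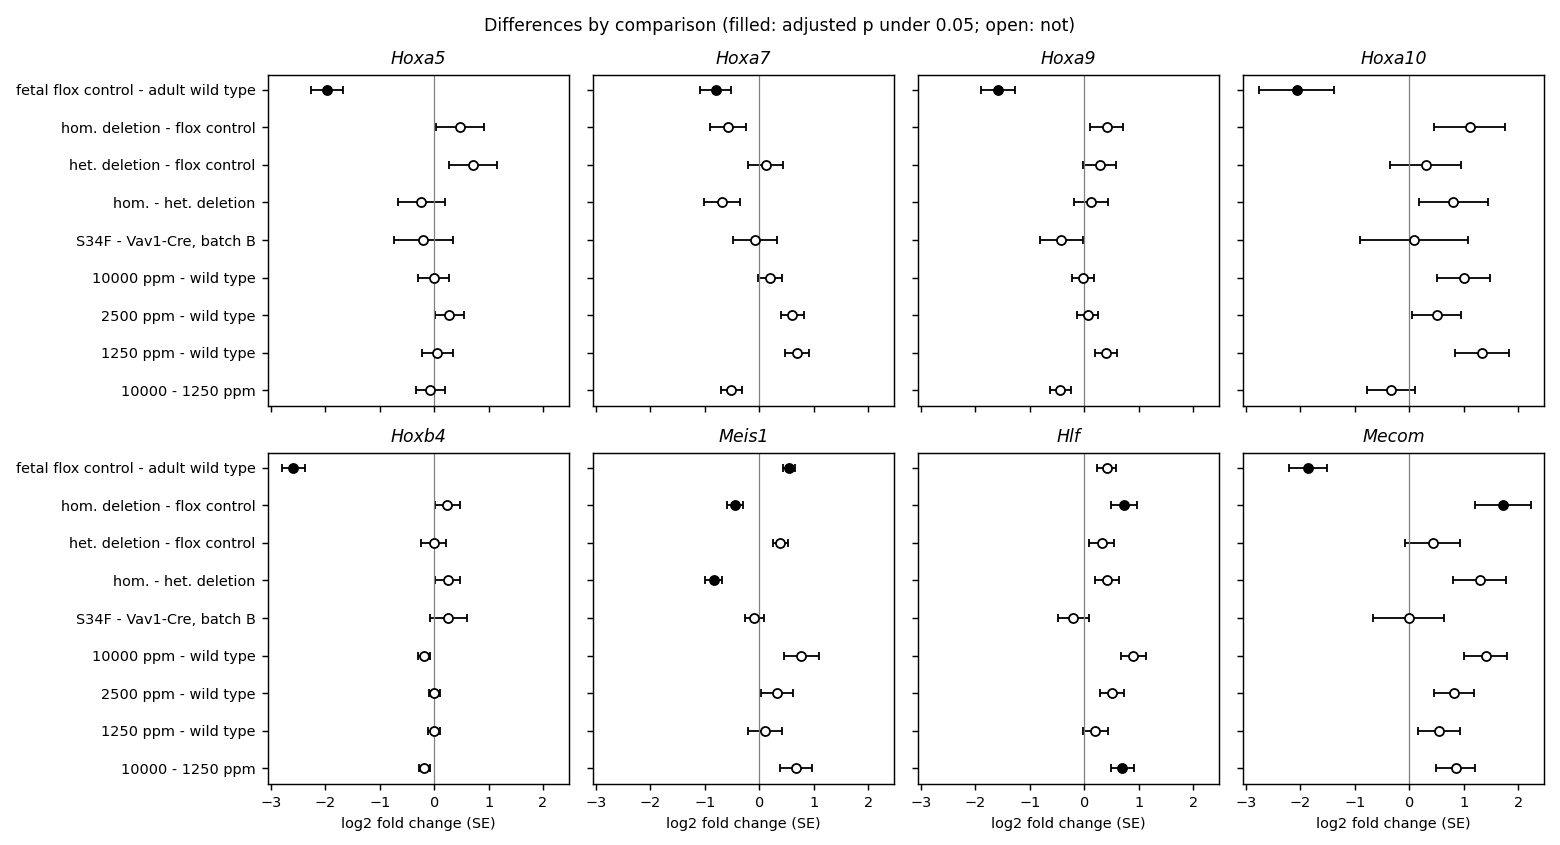
Log2 fold change with SE (horizontal axis) of each of the 8 genes in 9 comparisons, the first named group minus the second; filled points had an edgeR adjusted p under 0.05 and open points did not. The fetal-adult difference is the largest shift for Hoxb4 at -2.59. Between the homozygous deletion and the flox control, Mecom (1.72) and Meis1 (-0.45) differ in opposite directions.

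Between the heterozygous deletion and the flox control, edgeR called none of the 8 genes, beside 0.0316% of all genes tested. At an unadjusted p under 0.05 there was 1, Meis1, and DESeq2 called 0. Meis1 was at 86.4, 93.5 and 101 CPM against 69.2, 72.0 and 74.2 CPM, without overlap (log2 0.39 ± 0.14, edgeR adjusted p = 0.465). Such separation was not counted over all genes, so it is not shown to be particular to Meis1. The Vav1-Cre library of batch A, which carried Cre alone, had 88.1 CPM of Meis1.

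Ratios of counts within a library do not depend on scaling, and are given for 3 pairs of genes. The pairs were picked after the values were seen, so their separation lends no support and no test is given. Other pairs that separate likewise were not counted. Hoxa7 over Hoxa9 lay between 0.537 and 0.631 in the homozygous deletion, and between 0.951 and 1.28 in the other 12 fetal libraries. Mecom over Meis1 lay between 0.0732 and 0.131 in the homozygous deletion, and at most at 0.0415 in the other fetal groups. Hlf over Meis1 lay between 0.783 and 0.952 in the homozygous deletion, and at most at 0.495 elsewhere in the fetus. The adult wild type had 0.627 to 0.811 for Hoxa7 over Hoxa9, 0.0980 to 0.151 for Mecom over Meis1 and 0.396 to 0.487 for Hlf over Meis1. A ratio shows unequal change and not which gene moved.

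**Figure D5:**
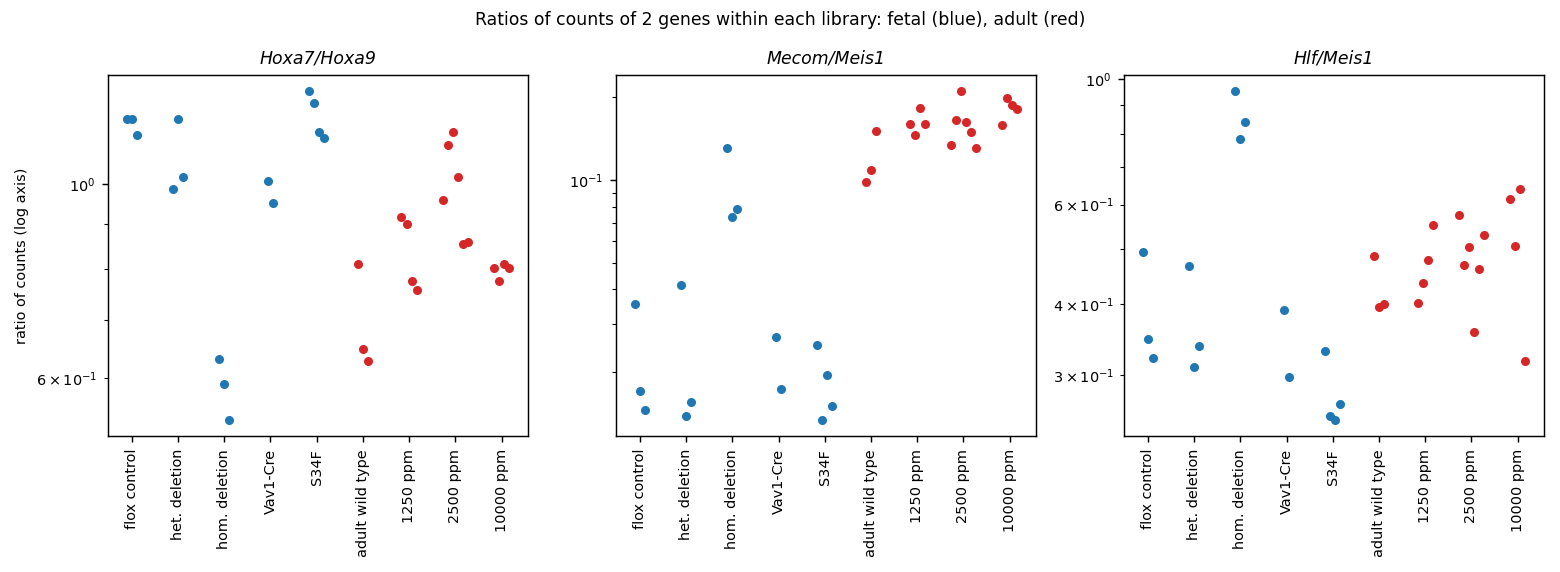
Ratio of counts within each library (log axis) for Hoxa7 over Hoxa9, Mecom over Meis1 and Hlf over Meis1, with 1 point per library, fetal groups in blue and adult groups in red. The 3 homozygous deletion libraries lie outside the range of the other 12 fetal libraries in each panel, below it for Hoxa7 over Hoxa9 (at most 0.631) and above it for the others. The pairs were picked after the values were seen.

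Other genes of the pathway were called about as often as the 41.0% of all genes in the homozygous deletion: 3 of 8 TALE partners, 6 of 14 chromatin regulators, 5 of 11 reported targets and 6 of 14 stem-cell factors. Of the 8 TALE partners, 1 was higher and 2 were lower than in the flox control, with a median of -0.05. Pknox2, a Meis-related partner of Pbx, averaged 0.535 ± 0.166 CPM, at least 9.53-fold higher than the floor in the flox control, where no library exceeded 3 counts. Meis3 (log2 -1.34 ± 0.41) and Pbx4 (-0.67 ± 0.17) fell. Tef fell by 0.68 on the log2 scale (SE 0.11), while Hlf, of the same family, was higher.

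Of 14 chromatin regulators, 2 rose and 4 fell with a median of -0.14, with Mllt3 (log2 -0.67 ± 0.18), Aff1 (0.50 ± 0.08), Psip1 (-0.33 ± 0.07) and Mllt10 (-0.24 ± 0.07) moving most. Of 11 reported targets of Hoxa9 and Meis1, 1 rose and 4 fell, with a median of -0.07. Flt3, a cytokine receptor of lymphoid-primed progenitors, fell from 68.2 to 13.5 CPM (log2 -2.35 ± 0.28, edgeR adjusted p = 0.000133), and Trib2, a pseudokinase linked to leukemia, from 26.3 to 5.22 CPM (-2.35 ± 0.31). Igf1 (log2 -2.74 ± 0.59) and Cd34 (-0.71 ± 0.14) fell too.

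Of 14 other stem-cell transcription factors, 4 rose and 2 fell with a median of -0.05. Gata2 rose from 271 to 513 CPM (log2 0.90 ± 0.05, edgeR adjusted p = 2.09e-06) and Gfi1 rose (1.34 ± 0.17), while Nfix, known to sustain stem and progenitor cells, fell from 76.7 to 27.1 CPM (-1.52 ± 0.07) and Prdm16 fell (-0.48 ± 0.14). Of 8 stem-cell surface genes, 4 fell and none rose, with a median of -0.72: Flt3, Cd34, Fgd5 (log2 -1.44 ± 0.26) and Tek (-1.15 ± 0.24). The other 4 did not pass: Slamf1 (log2 -0.73 ± 0.31), Procr (0.12 ± 0.34), Esam (0.18 ± 0.50) and Ctnnal1 (-0.17 ± 0.15). Mecom and Hlf were higher where the 4 called surface genes were lower. Flt3 is also a gene of lymphoid-primed progenitors, and Tek was also on the endothelial list.

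Markers of other cell types moved in the same comparison. Kit fell from 539 to 283 CPM (log2 -0.95 ± 0.10). All 5 megakaryocyte markers fell, and their summed level was 69.3 to 115 CPM in the homozygous deletion and 167 to 224 CPM in the flox control. All 4 endothelial markers with a row fell (101 to 142 against 188 to 207 CPM), as did all 10 hepatocyte markers (11.7 to 31.8 against 104 to 656 CPM). B lineage markers (4 of 4; 23.6 to 26.3 against 57.9 to 119 CPM) and 7 of 8 macrophage markers (39.4 to 62.0 against 103 to 110 CPM in sum) fell, and 1 macrophage marker, Vcam1, rose. Of 6 mast cell and basophil markers 3 rose (116 to 197 against 80.1 to 128 CPM), and of 6 neutrophil markers 5 rose (15943 to 18357 against 14759 to 21791 CPM in sum). None of the markers of these lists was at 0 in either group, but some stood under the floor of 3 counts in the homozygous deletion. There Pax5 and Marco had at most 2 counts per library and Cd5l at most 1. Their flox control means were at least 281-, 144- and 160-fold higher than the floor. Most of the B lineage sum came from Cd79b (24.7 against 47.9 CPM). The part of these cell-type markers in the values of Mecom, Hlf and Meis1 was not tested beyond the fit with the hepatocyte score. That fit cannot part the score from the genotype.

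The S34F comparison had 1 control library in batch B, so the spread was taken from all 15 fetal libraries, and the lone library was assumed to vary like the others. EdgeR called none of the 8 genes, beside 0.295% of all genes tested. None had an unadjusted p under 0.05, and DESeq2 called 0. Meis1 was at 102, 92.6, 97.7 and 111 CPM in the S34F libraries and 108 CPM in the control (log2 -0.09 ± 0.17). The largest difference was that of Hoxa9, at 9.65, 5.86, 7.60 and 9.30 CPM against 10.9 CPM (log2 -0.42 ± 0.39, edgeR adjusted p = 0.761). Log2 differences of Hlf (-0.20 ± 0.29), Hoxa5 (-0.20 ± 0.54), Hoxb4 (0.26 ± 0.34), Hoxa7 (-0.08 ± 0.41), Hoxa10 (0.08 ± 0.99) and Mecom (-0.01 ± 0.65) were smaller than their SE. The lists of TALE partners, chromatin regulators, reported targets and stem-cell genes had no called gene either.

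The third set of comparisons followed the adult doses. Against the untreated wild type, edgeR called none of the 8 genes at 10000 ppm (1.27% of all genes called), none at 2500 ppm (0.487%) and none at 1250 ppm (11.4%). Counts at an unadjusted p under 0.05 were 3 (Meis1, Hlf and Mecom), 3 (Hoxa7, Hlf and Mecom) and 2 (Hoxa7 and Hoxa10), and DESeq2 called 2, 0 and 2. The 3 comparisons share the wild-type libraries. Where a dosed group and the wild type separated at a gene below, the share of all genes that did so was not counted. The medians of the 8 genes were 0.48, 0.42 and 0.30, beside 0.00, 0.00 and 0.01 over all genes.

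Hlf differed between doses. It measured 30.1, 37.5, 41.5 and 46.3 CPM at 10000 ppm, and 21.2, 32.1, 22.9 and 19.4 CPM at 1250 ppm, and the groups overlapped through 1 library of each. The 10000 ppm level was 1.62-fold higher (log2 0.70 ± 0.21, edgeR adjusted p = 0.0324), the 1 call among the 8 genes beside 18.1% of all genes tested (7.53% higher and 10.6% lower). At 2500 ppm Hlf had a median of 27.4 CPM, from 21.9 to 47.1 CPM, and in the wild type 22.9, 22.5 and 17.5 CPM. The slope over the 14 dosed libraries was log2 0.24 ± 0.07 per doubling of the dose (edgeR adjusted p = 0.0432), again the 1 gene of the 8, beside 10.7% of all genes (5.39% with a positive and 5.32% with a negative slope).

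The Hlf call was near the threshold. Between 10000 and 1250 ppm it was lost without any 1 of 5 libraries (10000 ppm replicate 2 or 4, 1250 ppm replicate 1, 4 or 5), with log2 differences of 0.62 to 0.72 and adjusted p of 0.0564 to 0.0977. The trend passed in 7 of 20 alternative fits, with slopes from 0.20 to 0.36 and adjusted p from 0.0132 to 0.107. It was lost without any 1 of 11 of the 14 libraries: each of the 10000 ppm group, 1250 ppm replicates 1, 4 and 5, and 2500 ppm replicates 2, 4, 5 and 6. Against the wild type, Hlf at 10000 ppm missed with edgeR (log2 0.90 ± 0.23, adjusted p = 0.0601) and passed with DESeq2 (adjusted p = 0.00499).

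Mecom and Meis1 had the widest spread at 10000 ppm. Mecom measured 7.79, 14.7, 12.2 and 26.4 CPM at 10000 ppm, 8.43, 10.8, 8.77 and 5.62 CPM at 1250 ppm, 7.07 to 19.7 CPM with a median of 8.23 at 2500 ppm, and 4.60, 6.18 and 6.58 CPM in the wild type. Every 10000 ppm library was above every wild-type library (log2 1.40 ± 0.40, edgeR adjusted p = 0.0711, DESeq2 adjusted p = 0.00752). Without 10000 ppm replicate 3 the edgeR adjusted p was 0.0472. Meis1 measured 49.1, 74.1, 65.0 and 146 CPM at 10000 ppm, 52.6, 73.8, 47.9 and 35.3 CPM at 1250 ppm, 47.5 to 93.4 CPM with a median of 54.9 at 2500 ppm, and 47.0, 56.8 and 43.8 CPM in the wild type. The groups overlapped for Meis1 (log2 0.77 ± 0.32 at 10000 ppm against wild type, edgeR adjusted p = 0.167). In both genes 10000 ppm replicate 4 was the highest of all 32 libraries.

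Hoxa7, Hoxa9 (34.4 CPM) and Hoxa10 were highest at 1250 ppm by their means. Hoxa7 measured 35.0, 27.8, 27.1 and 25.5 CPM at 1250 ppm, all above the wild type's 16.5, 18.9 and 18.4 CPM (log2 0.70 ± 0.22, edgeR adjusted p = 0.0515). At 2500 ppm Hoxa7 averaged 27.5 ± 6.69 CPM (SD, n = 6), near its 1250 ppm level (log2 0.61 ± 0.21 against wild type, edgeR adjusted p = 0.176). At 10000 ppm it averaged 20.4 ± 5.72 CPM (SD, n = 4), with 28.2 CPM in the highest library, replicate 4, and the groups overlapped. Hoxa10 measured 5.41, 3.05, 5.03 and 2.48 CPM at 1250 ppm against 1.57, 2.15 and 1.03 CPM, also without overlap (log2 1.34 ± 0.50, edgeR adjusted p = 0.0819). Hoxa7 and Hoxa10 at 1250 ppm passed with DESeq2 (adjusted p = 0.0199 and 0.0319) and in a fit of only the compared groups (edgeR adjusted p = 0.00737 and 0.0282).

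Between 10000 and 1250 ppm, Hoxa7 (log2 -0.51 ± 0.20) and Hoxa9 (-0.44 ± 0.19) missed the threshold (edgeR adjusted p = 0.0902 and 0.114). Without 10000 ppm replicate 4, the library with the highest Meis1, both passed at log2 -0.67 (edgeR adjusted p = 0.0234) and -0.60 (0.0257). Hoxa9 measured 18.1, 25.8, 23.3 and 35.2 CPM at 10000 ppm and 38.2, 30.8, 34.9 and 33.7 CPM at 1250 ppm. Without that replicate the Hoxa9 ranges did not overlap. The dose slopes of these genes were -0.17 ± 0.07 for Hoxa7 and -0.12 ± 0.06 for Hoxa9, beside 0.23 ± 0.10 for Meis1 and 0.30 ± 0.12 for Mecom, none of which passed (edgeR adjusted p = 0.134, 0.216, 0.124 and 0.108). Without 10000 ppm replicate 4 the slopes of Hoxa7 (-0.23, edgeR adjusted p = 0.0387) and Hoxa9 (-0.19, 0.0312) passed.

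Hoxb4 and Hoxa5 varied least with dose. The mean of Hoxb4 was 9.70 ± 0.246 CPM at 10000 ppm (SD, n = 4), 11.2 ± 0.908 at 2500 ppm (n = 6), 10.9 ± 1.16 at 1250 ppm (n = 4) and 11.1 ± 0.356 in the wild type (n = 3). Against the wild type, its log2 difference was -0.19 ± 0.11 at 10000 ppm, -0.00 ± 0.10 at 2500 ppm and -0.01 ± 0.11 at 1250 ppm. Hoxa5 averaged 3.62 ± 1.31, 4.44 ± 0.984, 3.77 ± 1.19 and 3.65 ± 0.281 CPM in the same order of groups. Neither gene passed at any dose.

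In the pathway lists, few genes were called between 10000 and 1250 ppm, where 18.1% of all genes tested were. In lists this short, that share also gives few. Between 10000 and 1250 ppm, 1 of 6 TALE partners was higher, Pknox2 (1.80 ± 1.82 against 0.131 ± 0.0670 CPM; log2 3.74 ± 1.05, edgeR adjusted p = 0.0226), whose 10000 ppm libraries ran from 0.0723 to 3.66 CPM. Tef was higher together with Hlf (33.1 against 22.0 CPM, log2 0.58 ± 0.14, edgeR adjusted p = 0.0128). Erg, both a reported target of Hoxa9 and Meis1 and a stem-cell factor, was the 1 gene higher in each of those lists (log2 0.51 ± 0.13). Of 14 chromatin regulators, Men1 was the 1 called, and lower (log2 -0.35 ± 0.06). Median log2 differences were 0.26 for the TALE partners, 0.23 for the reported targets and 0.28 for the stem-cell factors, beside 0.02 over all genes.

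Against the wild type, Procr, which encodes the stem-cell surface receptor EPCR, was the 1 surface gene of 8 called at each dose, with log2 differences of 2.13 ± 0.40 at 10000 ppm, 1.75 ± 0.37 at 2500 ppm and 1.82 ± 0.39 at 1250 ppm. Cell-type markers moved as well. Of 4 B lineage markers, 3 were higher than in the wild type at 10000 ppm and 4 at both 2500 and 1250 ppm. Shares of all genes called were 1.27%, 0.487% and 11.4% at 10000, 2500 and 1250 ppm. At 1250 ppm, 4 of 7 macrophage markers were also higher than in the wild type, and 4 of 6 mast cell and basophil markers lower. All 5 megakaryocyte markers were higher at 10000 than at 1250 ppm, with a sum of 72.5 to 230 CPM against 31.9 to 64.9 CPM and 57.6 to 93.1 CPM in the wild type. The highest sum, 230 CPM, was in 10000 ppm replicate 4. Late erythroid markers summed to 725 CPM in 10000 ppm replicate 2 and to between 13.8 and 22.0 CPM in the other libraries of that dose, and neutrophil markers ran from 17291 to 65201 CPM at 10000 ppm. Kit was higher at 10000 than at 1250 ppm (log2 0.44 ± 0.14). None of these markers was at 0 in the dosed groups. Their part in the differences of Hlf, Mecom, Hoxa7 and Hoxa10 was not tested.

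Within groups, most of these genes varied together, and Hoxb4 least with the others. In the 9 fetal libraries of batch A, after group means were removed, Pearson's r of log2 CPM was 0.98 for Hoxa7 with Hoxa9 and 0.95 for Hlf with Mecom, and the HoxA genes also followed Hlf and Mecom, with 0.74 (Hoxa10 with Hlf) to 0.93 (Hoxa9 with Mecom). Hoxb4 reached at most 0.59, with Hoxa10. In the 17 adult libraries r was 0.92 for Meis1 with Mecom and 0.87 for Hoxa7 with Hoxa9, and Hoxa7 also followed Mecom (0.84) and Meis1 (0.73), while Hoxb4 lay between -0.28 and 0.30 with the other 7 genes. Libraries of a pair of genes share depth and cell makeup, so these values describe the libraries only.

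Over all 32 libraries, the 9654 genes with a symbol and a mean of at least 1 CPM were ranked by their r with each gene. The described genes were left out of the ranks, so the most alike gene is 1 outside this set. Such an r rests largely on the split between fetal and adult libraries. Hoxb4 was most like Tap2, Esr1 and Cpne2 (r = 0.99 each). The gene most like Hoxa5 was Adgrl4 (0.96), for Hoxa7 Cd27 (0.95), for Hoxa9 Kctd17 (0.94), for Hoxa10 Kctd17 (0.90) and for Mecom Def8 (0.91). Meis1 was most like Mdga1 (0.91) and Tek (0.90), the latter encoding the receptor Tie2 of stem and endothelial cells. Hlf, which did not split by stage, had no gene outside this set above 0.70, the value of Tbxa2r.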

How the data were processed

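RNA was sequenced from sorted progenitors in 32 libraries, as 2 reads of 150 bases per fragment after ribosomal RNA depletion, per the labels' protocols. The authors mapped the reads with HISAT2 2.1.0 to GRCm38, per the series' design text, and deposited raw counts per Ensembl gene. The counting tool, its use of strand, the annotation release and the filter that chose the deposited genes are not given in the sources used here. Splicing was not analysed here. That text warns of batch effects among fetal samples, and fetal genotypes were compared within batch.

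Symbols, positions and exon lengths came from GENCODE M21, and 27690 of 27728 IDs matched. Genes were kept by filterByExpr, scaled by TMM and tested with edgeR 4.0.16 (glmQLFit and glmQLFTest), with Benjamini-Hochberg adjustment over all genes tested. The 3 deletion comparisons used the 9 batch A libraries, the adult ones all 17, the trend the 14 dosed ones on log2 of the dose, and fetal against adult the 6 control libraries. Level values are CPM with TMM over all 32 libraries, with a prior count of 2 on the log2 scale. The floor of 3 counts per library covers counting error only, since reads carried no molecular identifiers. The fits were tested on simulated data first. Replicate pairs differed beyond counting error in all 45 pairs of libraries (chi-square per degree of freedom 3.85 to 522).

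The genes and the pathway and marker lists were chosen with earlier results of these data known. All 8 genes with a row were tested in each comparison, though some comparisons give values for only some of them. From the other lists at most 4 called genes of largest change are named, leaving out any whose higher group averaged under 10 counts. A few genes of those lists that did not pass are named as well. Promoter windows are from RefSeq (GRCm38.p6), in which all 8 genes matched, and no printed window holds an annotated exon. Alternatives were DESeq2 1.42.0, RLE scaling, no filter on low counts, no genes over 1% of a library, other sets of libraries, the hepatocyte score, the rank of the dose, the replicate number as a block, and leaving out each library in turn.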

Additional observations from a re-analysis of the deposited data

Results flagged for a closer look

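Within groups of 4 or more libraries, a library standing far from the rest was looked for in 32 sets of values (8 genes in 4 groups), of which chance flags about 1 in 20, and 2 stood out. Both were in replicate 3 of the 2500 ppm group. Hlf measured 47.1 CPM there and 21.9 to 31.1 CPM in the other 5 libraries, a gap of 0.636 of the range above the critical value for 6 libraries. Mecom measured 19.7 CPM there and 7.07 to 11.2 CPM in the others, a gap of 0.670 of the range. Meis1 was highest in the same library of that dose, at 93.4 CPM.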

How the results depend on the processing

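Over the single genes and comparisons, processing alternatives left 513 results on the same side of the threshold, moved 17 below and 21 above it and reversed 1, and leaving out a library left 538 the same, with 35 moved below and 11 above. Hoxb4, Hoxa5, Hoxa9 and Mecom kept the fetal-adult call in 13 of 14 alternatives, and Meis1 kept the call between the deletions in 14 of 14. With the hepatocyte score the number of the 8 genes called fell from 3 to 0 for homozygous deletion against flox control, and from 7 to 0 for fetal against adult, where Meis1 reversed to log2 -0.36. In both comparisons the score did not overlap between the groups, so these fits cannot part it from genotype or stage. Without a filter on low counts the number became 1 for heterozygous deletion against flox control, 4 between the deletions and 0 for the dose trend. DESeq2 called 2 between the deletions, 2 at 10000 ppm and 2 at 1250 ppm. A fit of only the compared groups called 3 between the deletions and 2 at 1250 ppm, and one of all 15 fetal libraries 2 between the deletions. Replicate numbers did not pair the libraries: same-numbered ones correlated above 0.1 in 1 of 7 cases in batch A (r -0.16 to 0.14) and in 6 of 19 in adults (-0.27 to 0.52). With the replicate number as a block, 2 genes were called for homozygous deletion against flox control (Meis1 and Hoxa7), 3 between the deletions, 0 for 10000 against 1250 ppm and 0 for the trend. No paired analysis was possible for fetal against adult because those controls share fewer than 2 numbers. Leaving out 1 library gave 0 to 5 genes for homozygous deletion against flox control, 1 to 2 between the deletions, 5 to 7 for fetal against adult, 0 to 1 at 10000 ppm, 0 to 2 for 10000 against 1250 ppm, 0 to 2 for the trend, and 0 in the other 4 comparisons. The cause of these shifts was not tested. Without scaling, the median of all genes moved to -0.11 and -0.17 in the homozygous comparisons, and the share of called genes that were higher was 31.0% in place of 45.2%, and 28.6% in place of 46.9%. Depth limits Hoxa10, at 4 to 55 counts in fetal libraries.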

Other observations

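Several Hox genes outside the described set were detected at low levels, in more adult than fetal libraries. Hoxb6 exceeded 3 counts in 14 of 17 adult and 0 of 15 fetal libraries, with a highest level of 0.573 CPM. Hoxc6 exceeded 3 counts in 9 adult libraries (up to 0.755 CPM) and Hoxb8 in 8 adult and 3 fetal libraries (up to 0.296 CPM). Hoxb1, a gene of the 3′ end of its cluster, did so in 6 adult libraries and had no count in any fetal library. Hoxc4 did so in 2 adult libraries, with 44 counts in the highest. These genes had too few counts for a test in most comparisons.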
